A study of Mus musculus with 9 samples.

Results

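The 9 mature myelin genes Opalin, Ugt8a, Mbp, Mog, Mag, Mobp, Cnp, Mal and Ermn were followed across 9 bulk RNA libraries of mouse cerebellum. They were chosen by name, as genes of the finished myelin sheath, with earlier results of these data known. Each matched a single row among the 53924 rows with a gene name in the deposited tables. The libraries form 3 groups of 3. PLX3AP libraries came from mice that received 3-acetylpyridine after microglia had been depleted with PLX3397, 3AP libraries from mice that received 3-acetylpyridine, and control libraries from mice given saline. 3-Acetylpyridine resembles nicotinamide and kills neurons of the inferior olive, the source of the climbing fibres to Purkinje cells, and serves as a toxin model of ataxia. PLX3397 inhibits the receptor encoded by Csf1r, on which microglia depend for survival. For strain, age, dose and the interval between treatment and dissection nothing is given in the labels, and no group given PLX3397 alone was analysed here, so an effect of PLX3397 itself and its effect on the response to 3-acetylpyridine cannot be told apart. Nothing in the labels ties a library to an animal of its own. The p-values below therefore measure only how far these samples differ from each other, and that spread may be technical.

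Myelin is the multilayered membrane that oligodendrocytes wrap around axons of the central nervous system. Its layers are held together by basic proteins on the cytoplasmic side and by lipids rich in galactosylceramide, while adhesion molecules sit on the innermost and outermost turns. In the cerebellum it lies mainly in the white matter tracts, which carry the axons of Purkinje cells out of the cortex and the mossy and climbing fibres into it. The 9 genes cover these roles: Mbp, Mobp and Mal in compact myelin, Cnp in the cytoplasm-filled channels, Mag, Mog and Opalin at the membrane surface, Ugt8a in lipid synthesis, and Ermn in the actin cytoskeleton of late oligodendrocytes. Because whole tissue was sequenced, fewer oligodendrocytes and less RNA per oligodendrocyte cannot be told apart.

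Promoter windows of 3 of the genes are shown because Opalin and Ugt8a were the members that passed the test in these data, and Mobp was the member whose fitted differences lay furthest the other way. Each runs from 250 bases before to 50 bases after the transcription start, 5′ to 3′ on the strand of the gene, as given by RefSeq for GRCm38.p6. The Opalin window is chr19:41077064-41077363 on the minus strand, that of Ugt8a is chr3:125938603-125938902 on the minus strand, and that of Mobp is chr9:120149492-120149791 on the plus strand. Capitals mark matches, on either strand, to the letters searched: ACAAAG and ACAATG (SOX family), CTGGCAC and CTGGTAC (MYRF, the regulator of myelin genes), CAGCTG and CAGATG (E-boxes) and GGGCGG (a GC box).
Opalin: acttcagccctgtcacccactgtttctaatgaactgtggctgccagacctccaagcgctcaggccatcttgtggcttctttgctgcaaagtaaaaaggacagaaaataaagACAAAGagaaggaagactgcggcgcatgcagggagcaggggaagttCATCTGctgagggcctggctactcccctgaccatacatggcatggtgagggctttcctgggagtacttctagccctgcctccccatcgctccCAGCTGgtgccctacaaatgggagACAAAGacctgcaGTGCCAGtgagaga
Ugt8a: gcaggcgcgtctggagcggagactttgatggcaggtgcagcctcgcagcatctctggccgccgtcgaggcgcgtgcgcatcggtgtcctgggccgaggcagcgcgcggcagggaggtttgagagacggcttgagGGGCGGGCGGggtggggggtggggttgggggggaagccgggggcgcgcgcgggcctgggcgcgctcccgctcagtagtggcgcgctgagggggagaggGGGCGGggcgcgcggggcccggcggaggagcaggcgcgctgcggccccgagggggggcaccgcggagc
Mobp: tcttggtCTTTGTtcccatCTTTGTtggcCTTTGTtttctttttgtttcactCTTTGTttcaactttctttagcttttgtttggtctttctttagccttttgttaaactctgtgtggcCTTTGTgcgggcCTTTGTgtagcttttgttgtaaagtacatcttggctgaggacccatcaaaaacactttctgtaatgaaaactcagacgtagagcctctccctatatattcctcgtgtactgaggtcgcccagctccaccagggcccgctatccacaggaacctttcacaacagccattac

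The Opalin window held ACAAAG at 2 places, CTGGCAC at 1, CAGCTG at 1 and CAGATG at 1. In the Ugt8a window only GGGCGG was found, at 3 places, of which a pair overlaps. The Mobp window held ACAAAG at 6 places and no other of the 7 motifs. Bases G and C made up 54.3% of the Opalin window, 78.3% of the Ugt8a window and 43.3% of the Mobp window, against a median of 52.7% over the 32851 windows in the table. Among all windows 18.7% held ACAAAG, 12.6% ACAATG, 5.01% CTGGCAC, 2.24% CTGGTAC, 16.3% CAGCTG, 17.2% CAGATG and 35.7% GGGCGG. Windows of 8 members were searched, 10 in all, and 5 of these members held letters of the SOX family. This count is per gene and for either motif. The shares above are per window and for single motifs, so they give no background for it. A match describes the letters in this window and is not evidence of a bound site.

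Each library held between 18355195 and 22234150 estimated counts on named rows, and 21643 to 22776 rows were above 0. Libraries of a group differed by more than counting noise in every pair (chi-square over its degrees of freedom, 4.80 to 28.3), and all were kept as separate samples. Csf1r, the gene of the receptor that PLX3397 inhibits and a microglial marker, had 13.2, 17.4 and 24.9 CPM (counts scaled to a common library size) in PLX3AP libraries, 60.8, 51.3 and 51.0 CPM in 3AP libraries and 34.7, 32.0 and 34.1 CPM in control libraries, lowest in the group given PLX3397. Choroid plexus genes, a sign of how the tissue was dissected, varied widely within groups: the 10 genes summed to 41.0 to 2080 CPM in PLX3AP, 640 to 1990 CPM in 3AP and 129 to 4060 CPM in control libraries.

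On a scale corrected for length, TPM (transcript abundance as a share of the library), the 9 genes spanned more than 2 orders of magnitude. Mbp, which compacts the cytoplasmic faces of the membrane, averaged 4034 ± 482 TPM in PLX3AP, 3402 ± 205 TPM in 3AP and 3407 ± 373 TPM in control libraries (SD, n = 3 each), and ranked 16th, 20th and 18th among all named rows in those groups. Mobp came next and Cnp after it in all 3 groups, with no overlap between neighbours. Opalin was lowest in each group, with 19.7 ± 1.62 TPM in PLX3AP, 9.75 ± 2.40 TPM in 3AP and 18.7 ± 0.393 TPM in control libraries. Between these ends the order was Mag, Mal, Mog and then Ugt8a with Ermn. Ugt8a and Ermn overlapped in every group, and Mag overlapped Mal in 3AP libraries. Together the 9 genes took 0.437 to 0.604% of all TPM in a library, and Mbp alone made up 66.8 to 73.1% of that sum.

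Between groups, levels are given in CPM scaled by TMM, and differences as log2 fold changes of edgeR's quasi-likelihood test, fitted to all 16634 genes tested in the 9 libraries. A gene is said to rise or fall where its Benjamini-Hochberg adjusted p over all those genes is under 0.05. All 9 members passed the filter on low counts. In 3AP against control, 2 of the 9 members fell (Opalin and Ugt8a) and none rose, where 1.18% of all tested genes fell and 3.75% rose. In PLX3AP against 3AP, 1 member rose (Opalin) and none fell, where 0.577% of all tested genes rose and 3.16% fell. In PLX3AP against control no member was called by edgeR, DESeq2 or limma, 1 had an unadjusted p under 0.05, and 0.0361% of all tested genes rose and 0.0842% fell. The same 3AP libraries enter the first pair of comparisons, and the same control or PLX3AP libraries enter the third, so the comparisons are not independent of each other.

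**Figure D1:**
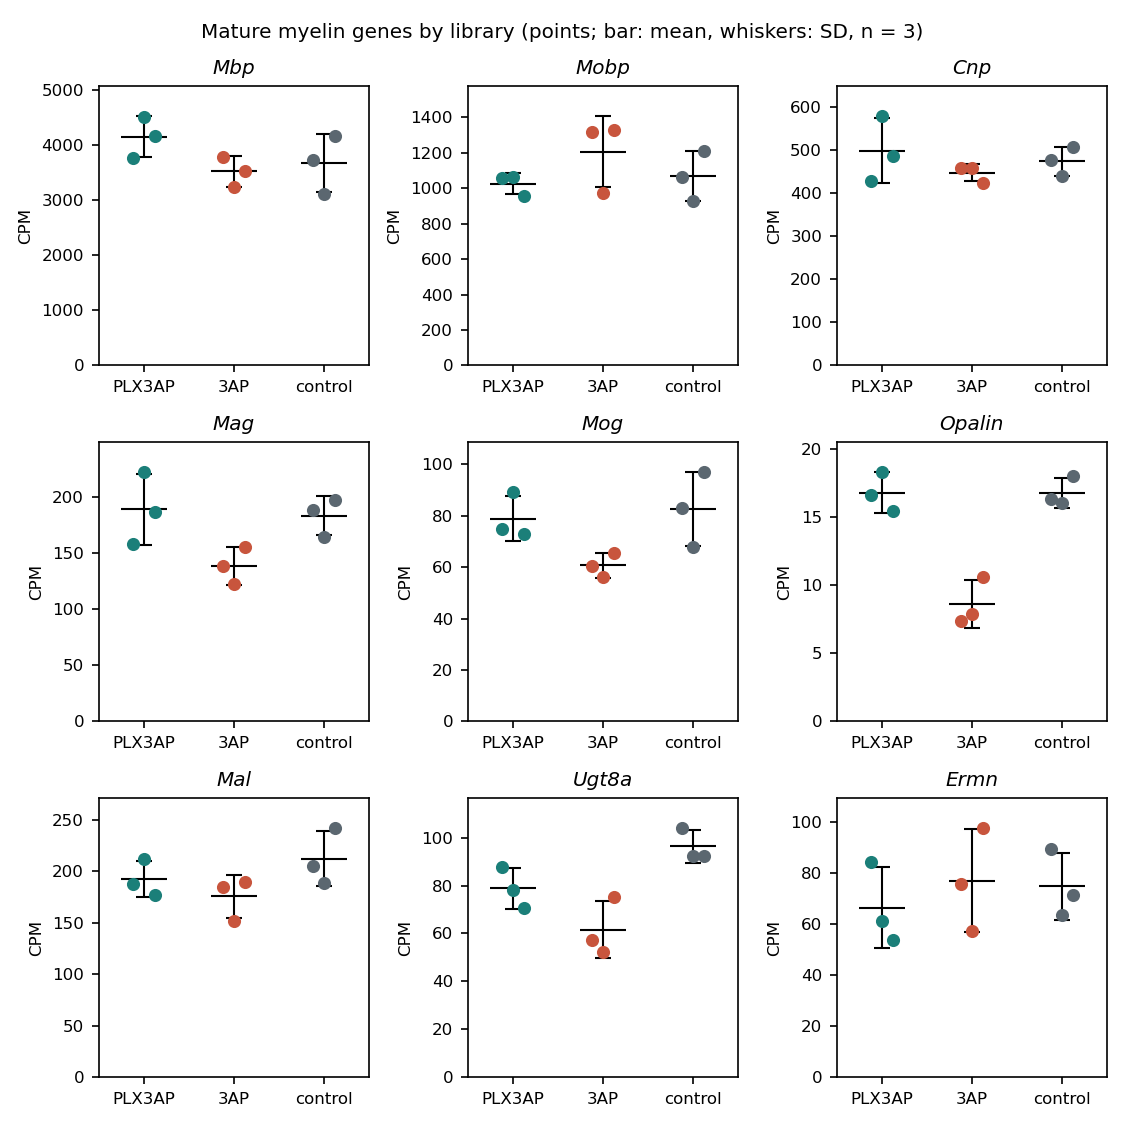
CPM of the 9 mature myelin genes (vertical axis, from 0) in the PLX3AP, 3AP and control libraries (horizontal axis, left to right); each point is a library, the bar is the group mean and the whiskers are its SD (n = 3). The 3 points of Opalin in 3AP libraries lie between 7.36 and 10.6 CPM, below every point of the other groups, while the groups of Mbp, Mobp, Cnp, Mal and Ermn overlap.

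Opalin encodes a sialylated transmembrane glycoprotein of oligodendrocytes that is found in the central and not in the peripheral nervous system of mammals. Its gene lies at chr19:41061710-41077113 on the minus strand (GENCODE M21, mm10) and overlaps no other annotated gene. It had 16.6, 18.3 and 15.4 CPM in PLX3AP libraries, 7.36, 7.89 and 10.6 CPM in 3AP libraries and 16.3, 16.0 and 18.0 CPM in control libraries, from 150 to 406 estimated counts a library. All 3AP libraries were below all others, and PLX3AP and control libraries overlapped. Opalin fell 1.94-fold in 3AP against control, a log2 fold change of -0.96 ± 0.14 (SE), with an adjusted p of 0.0016 by edgeR. Its rise in PLX3AP against 3AP was as large, 0.96 ± 0.14 on the log2 scale with an adjusted p of 0.0016 by edgeR. Between PLX3AP and control the fitted difference was 0.00, with a 95% confidence interval of -0.30 to 0.30 on the log2 scale.

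Mog, an immunoglobulin-fold protein of the outermost turn of the sheath and a classic target of demyelinating antibodies, had 74.7, 89.1 and 72.9 CPM in PLX3AP libraries, 60.5, 56.1 and 65.6 CPM in 3AP libraries and 82.8, 68.0 and 96.9 CPM in control libraries. The 3AP libraries were again below all others, though by a smaller margin. The log2 fold change was -0.44 ± 0.13 (SE) in 3AP against control and 0.38 ± 0.13 in PLX3AP against 3AP, and neither passed the test (adjusted p = 0.069 and 0.17, edgeR). Mag, a sialic acid-binding adhesion molecule of the innermost turn that faces the axon, had 158, 222 and 186 CPM in PLX3AP libraries, 138, 122 and 155 CPM in 3AP libraries and 188, 164 and 197 CPM in control libraries. These 3AP libraries too lay below every other library. Its log2 fold change was -0.41 ± 0.13 in 3AP against control and 0.45 ± 0.13 in PLX3AP against 3AP, with adjusted p of 0.11 and 0.094 by edgeR. DESeq2 called Mog (adjusted p = 0.017) and Mag (adjusted p = 0.031) lower in 3AP against control, and Mag higher in PLX3AP against 3AP (adjusted p = 0.015). With edgeR, Mog was also called in 3AP against control without the filter on low counts (adjusted p = 0.027) and without control replicate 2 (0.019). Mag was called there when only the 6 libraries of that comparison were fitted (adjusted p = 0.046) and without PLX3AP replicate 1 (0.042), and without the same library also in PLX3AP against 3AP (0.02). The calls of this pair thus depend on the tool, the filter and single libraries.

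Counting genes whose groups did not overlap, Opalin, Ugt8a, Mog and Mag were lower in every 3AP library than in every control library, 4 of 9 members against 11.0% of all tested genes. Opalin, Mog and Mag were higher in every PLX3AP than in every 3AP library, 3 of 9 against 7.66% of all tested genes. Ugt8a alone was lower in every PLX3AP than in every control library, against 6.42% of all tested genes.

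Ugt8a encodes the galactosyltransferase that makes galactosylceramide, the most characteristic lipid of myelin. The gene lies at chr3:125865271-125938619 on the minus strand and overlaps no other annotated gene. It had 87.8, 78.2 and 70.7 CPM in PLX3AP libraries, 57.3, 52.4 and 75.3 CPM in 3AP libraries and 104, 92.2 and 92.3 CPM in control libraries. Replicate 3 of the 3AP group lay well above the other 3AP libraries and within the range of the PLX3AP group, but below every control library. Ugt8a fell 1.56-fold in 3AP against control, with a log2 fold change of -0.64 ± 0.13 (SE) and an adjusted p of 0.012 by edgeR. That call was lost without control replicate 1 (adjusted p = 0.063), without 3AP replicate 1 (0.069) and without 3AP replicate 2 (0.055). In PLX3AP against 3AP its log2 fold change was 0.36 ± 0.13 and was not called (adjusted p = 0.23), but without 3AP replicate 3 it was 0.51 and was called (adjusted p = 0.016). Against control, PLX3AP libraries gave -0.29 ± 0.13, with an unadjusted p of 0.043 and an adjusted p of 0.52 in edgeR's quasi-likelihood test.

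**Figure D2:**
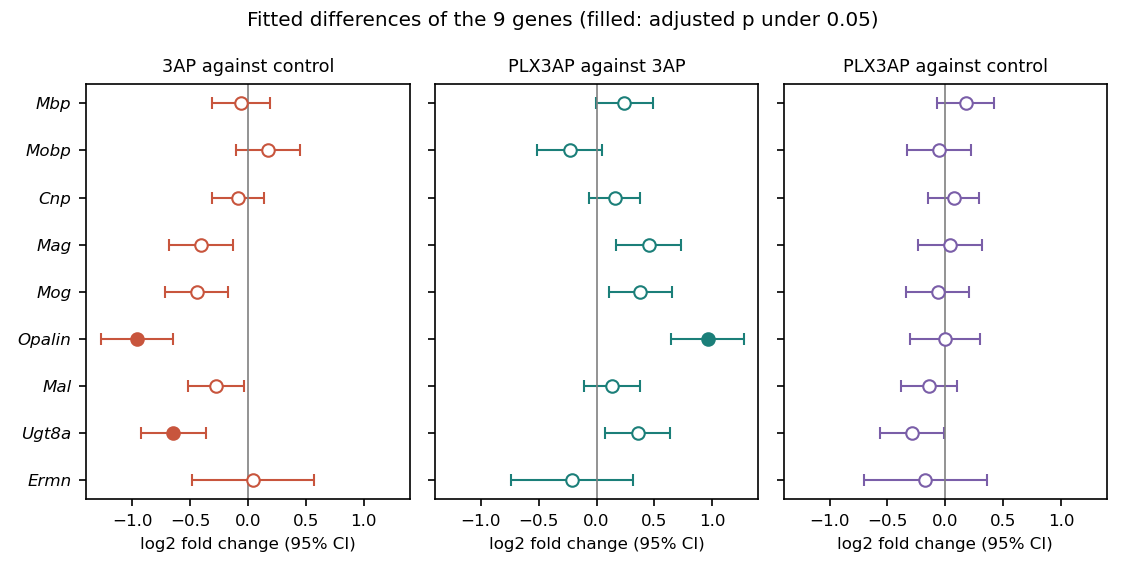
Log2 fold change (horizontal axis) with its 95% confidence interval for each of the 9 genes (vertical axis) in the 3 comparisons; filled points passed an adjusted p of 0.05 in edgeR's quasi-likelihood test. Opalin and Ugt8a are filled to the left of 0 in 3AP against control, Opalin is filled to the right of 0 in PLX3AP against 3AP, and no point is filled in PLX3AP against control.

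None of the genes of compact myelin passed the test in any comparison. Mbp had 3762, 4512 and 4167 CPM in PLX3AP libraries, 3785, 3237 and 3527 CPM in 3AP libraries and 3730, 3108 and 4159 CPM in control libraries. The groups overlapped, and the log2 fold change was -0.06 (95% interval -0.31 to 0.19) in 3AP against control and 0.24 (-0.01 to 0.48) in PLX3AP against 3AP. The interval of 3AP against control for Mbp therefore lies above the fitted value of Opalin and that of Ugt8a. The locus also gives golli transcripts, which are made in neurons and immune cells too, and the gene-level row does not separate them.

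Mobp, a basic protein on the cytoplasmic side of compact myelin, had 1058, 1065 and 956 CPM in PLX3AP libraries, 1318, 975 and 1328 CPM in 3AP libraries and 1065, 926 and 1212 CPM in control libraries. Its highest libraries were 3AP replicates 1 and 3, while 3AP replicate 2 was near the lowest of all. The log2 fold change was 0.18 (95% interval -0.10 to 0.45) in 3AP against control and -0.23 (-0.51 to 0.04) in PLX3AP against 3AP, with signs opposite to those of Opalin, and neither passed the test (adjusted p = 0.54 and 0.53, edgeR). Mal, a raft-associated proteolipid involved in sorting of myelin membrane, had 188, 212 and 177 CPM in PLX3AP libraries, 185, 152 and 190 CPM in 3AP libraries and 205, 189 and 242 CPM in control libraries. Replicate 3 of the 3AP group (190 CPM) lay just above control replicate 2 (189 CPM), so the groups overlapped, and in 3AP against control the log2 fold change was -0.27 ± 0.11 (SE) with an adjusted p of 0.23 by edgeR. It was 0.13 in PLX3AP against 3AP (adjusted p = 0.73).

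Cnp encodes the cyclic nucleotide phosphodiesterase that keeps cytoplasmic channels of the sheath open. It had 429, 579 and 487 CPM in PLX3AP libraries, 459, 458 and 424 CPM in 3AP libraries and 476, 439 and 507 CPM in control libraries. All groups overlapped, and the log2 fold change in 3AP against control was -0.08 (95% interval -0.31 to 0.14), and in PLX3AP against 3AP it was 0.16 (-0.06 to 0.38). Ermn, an actin-binding protein of late oligodendrocytes, had 84.2, 61.3 and 53.6 CPM in PLX3AP libraries, 75.7, 57.4 and 97.5 CPM in 3AP libraries and 89.3, 63.6 and 71.2 CPM in control libraries. It was the most variable member within groups, with a coefficient of variation of 24.0% in PLX3AP, 26.1% in 3AP and 17.7% in control libraries. Its interval in 3AP against control, -0.48 to 0.57 on the log2 scale, was accordingly wide. Cnp overlaps the protein-coding gene Dnajc7, and Ermn overlaps Galnt5, each on the opposite strand. Strandedness of the counting is not given in the sources used here, so reads from the overlaps cannot be assigned.

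Over the 9 genes the median log2 fold change was -0.27 in 3AP against control, 0.24 in PLX3AP against 3AP and -0.06 in PLX3AP against control. The medians over all tested genes were 0.00, -0.01 and 0.00. In 3AP against control 7 of 9 signs were negative, and in PLX3AP against 3AP 7 of 9 were positive. The summed CPM of the 9 genes, which Mbp dominates, was 5860 to 6840 in PLX3AP, 5120 to 6090 in 3AP and 5070 to 6600 in control libraries, so the sum overlapped between all groups.

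Within each library, Opalin was also compared with the other members, which removes whatever moves all 9 genes together. The log2 CPM of Opalin minus the mean of the other 8 was -4.02, -4.00 and -4.05 in PLX3AP libraries, -5.08, -4.76 and -4.66 in 3AP libraries and -4.17, -3.96 and -4.09 in control libraries. Every 3AP library was lower than every other library on this measure. For Ugt8a against the other 7, without Opalin, the difference was -1.85, -2.18 and -2.11 in PLX3AP libraries, -2.43, -2.32 and -2.11 in 3AP libraries and -1.71, -1.65 and -1.98 in control libraries. Here 3AP replicate 3 reached the PLX3AP range, and the 3AP group was still below every control library. These differences are descriptions, since 3 libraries against 3 cannot give an exact permutation p below 0.10. Opalin and Ugt8a are also the members called lower in these same 3AP libraries. Low values against the other members follow in part from that choice and add no separate support.

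**Figure D3:**
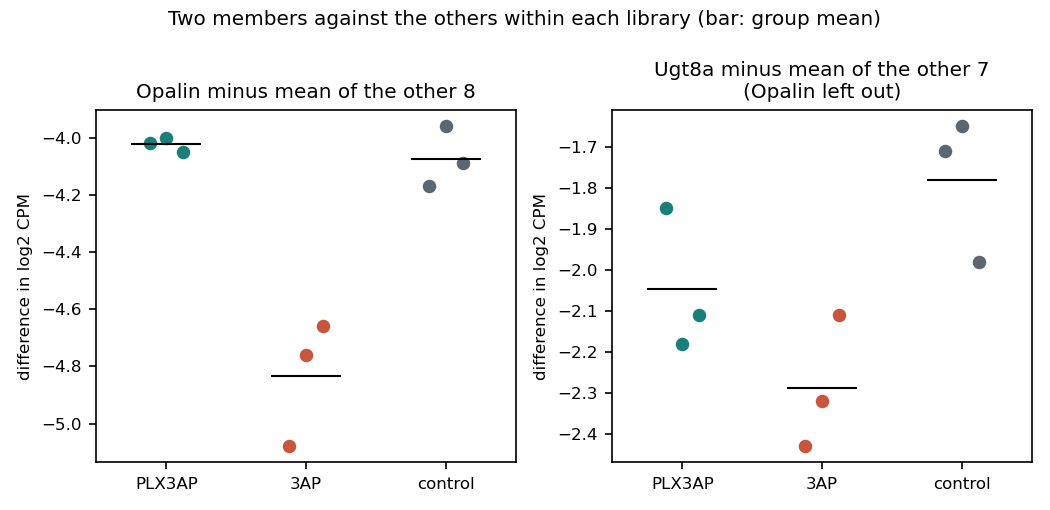
Log2 CPM of Opalin minus the mean of the other 8 members (left) and of Ugt8a minus the mean of the other 7 members without Opalin (right), by library, for the PLX3AP, 3AP and control groups (horizontal axis); bars are group means, and the vertical axes do not start at 0. The Opalin points of 3AP libraries lie at -4.66 and below, and all others at -4.17 and above.

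Around their group means the members tended to be high or low in the same libraries. In control replicate 2 none of the 9 genes was above the mean of its group, and 1 was in 3AP replicate 2 (Cnp) and 1 in PLX3AP replicate 3 (Mbp). In 3AP replicate 3, 8 of 9 were above it, and in PLX3AP replicate 2 and control replicates 1 and 3, 7 of 9. The Pearson correlation of these deviations between 2 members, over the 9 libraries, had a median of 0.60 over the 36 pairs, with 33 pairs positive. It was highest for Ugt8a with Ermn (0.94) and for Mobp with Mal (0.93), and lowest for Cnp with Ermn (-0.39). The members share libraries and their depth, so these values describe the 9 libraries. No such median was computed for other genes, so whether shared deviation is particular to the members was not tested. Replicate 2 of the 3AP group also stood apart in Slc17a6, the vesicular glutamate transporter of hindbrain and deep nuclear neurons, at 20.9 CPM against 86.0 and 96.7 CPM in the other 3AP libraries. Its part in the myelin values was not tested. Without that library, Opalin was still called in both comparisons.

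**Figure D4:**
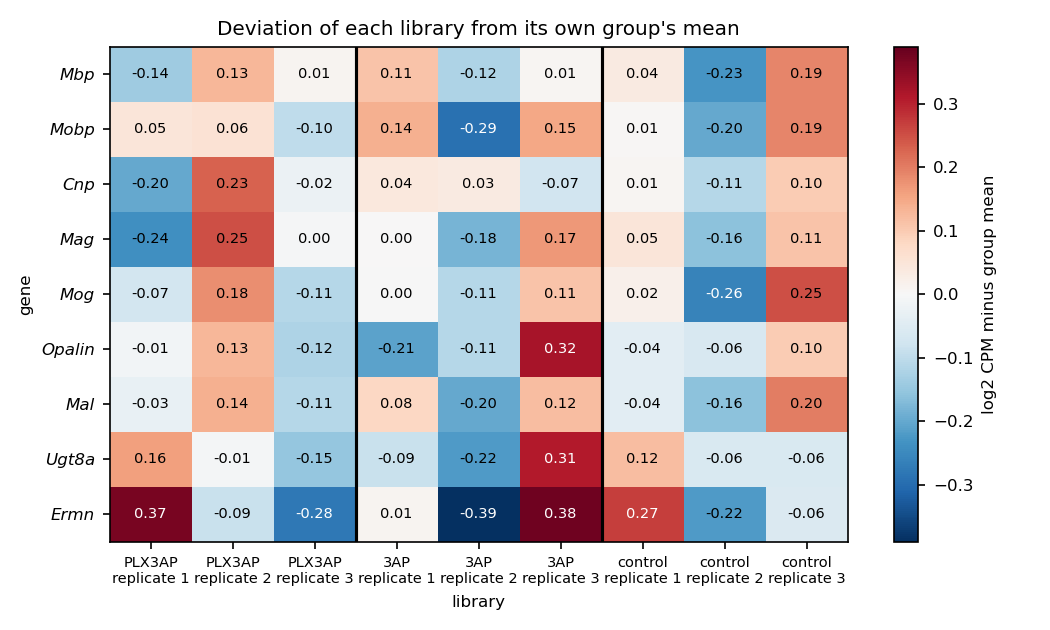
Deviation of each library from the mean of its own group in log2 CPM (colour scale and printed values), for the 9 genes (rows) and the PLX3AP, 3AP and control libraries (columns, left to right). The columns of PLX3AP replicate 3, 3AP replicate 2 and control replicate 2 are mostly below 0, and that of 3AP replicate 3 is mostly above 0.

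Of 16 tested genes on a list of other sheath proteins, 4 fell and 1 rose in 3AP against control, while 4 rose and 1 fell in PLX3AP against 3AP, with medians of -0.19 and 0.19 on the log2 scale. In 3AP against control limma on TPM called 1 lower and DESeq2 5. Over fits that each left out 1 library the count that fell by edgeR ran from 1 to 5. The list also holds a lipid carrier, a heat shock protein and a carbonic anhydrase, so its counts are not specific to the sheath. Pllp, plasmolipin, a proteolipid of myelin rafts, had 59.9, 65.8 and 60.4 CPM in PLX3AP libraries, 31.8, 39.1 and 42.0 CPM in 3AP libraries and 60.5, 51.5 and 61.0 CPM in control libraries. It fell in 3AP against control (log2 fold change -0.61, adjusted p = 0.0042, edgeR) and rose in PLX3AP against 3AP (0.72, adjusted p = 0.0014). Car2, the carbonic anhydrase of oligodendrocytes, fell by 0.37 in 3AP against control (adjusted p = 0.011) and rose by 0.38 in PLX3AP against 3AP (adjusted p = 0.0086). Cryab, a small heat shock protein, fell by 0.41 (adjusted p = 0.013) and rose by 0.55 (adjusted p = 0.002) on the log2 scale in the same comparisons by edgeR. Leaving out 3AP replicate 1 or 2 ended both calls of Car2 (adjusted p up to 0.065 and 0.058) and the fall of Cryab (up to 0.064). The fourth gene that rose in PLX3AP against 3AP was Gpr37, a receptor of late oligodendrocytes (0.46, adjusted p = 0.0083), whose call was lost without 3AP replicate 1 (0.056). Apod, the lipid carrier apolipoprotein D, moved the other way, with 320, 407 and 372 CPM in PLX3AP libraries, 938, 835 and 724 CPM in 3AP libraries and 265, 250 and 313 CPM in control libraries. Its log2 fold change was 1.59 in 3AP against control (adjusted p = 2.5e-05) and -1.19 in PLX3AP against 3AP (adjusted p = 0.00013), both by edgeR. The fourth gene that fell in 3AP against control was Tspan2 (-0.35, adjusted p = 0.015), a tetraspanin of the sheath, and that call was lost without control replicate 1, 3AP replicate 1 or 3AP replicate 2 (up to 0.097).

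Among 13 genes of myelin lipid synthesis, 2 fell and none rose in 3AP against control, and the same 2, the fatty acid desaturases Fads2 and Fads1, rose in PLX3AP against 3AP. Fads2 had 109, 126 and 127 CPM in PLX3AP libraries, 81.8, 73.1 and 76.0 CPM in 3AP libraries and 120, 131 and 131 CPM in control libraries. Its log2 fold change was -0.73 in 3AP against control (adjusted p = 0.00022) and 0.65 in PLX3AP against 3AP (adjusted p = 0.00042), and those of Fads1 were -0.46 (0.0023) and 0.42 (0.0048), all by edgeR. No other gene of this list was called by edgeR in these comparisons. The list's log2 fold changes in 3AP against control ran from -0.73 to 0.25, with a median of -0.14. DESeq2 called 1 of the list higher and 2 lower there, and limma on TPM called 0 and 2. Which cells the transcripts of Fads2 and Fads1 came from was not tested. Cholesterol synthesis, which myelin draws on heavily and every cell uses, had 8 of 19 genes lower and none higher in 3AP against control, with a median log2 fold change of -0.29. The steps of the list with the smallest p were Cyp51 (-0.66, adjusted p = 0.00014), Hmgcs1 (-0.67, 0.00036), Msmo1 (-0.63, 0.00062) and Sqle (-0.56, 0.0019). The count ran from 4 to 8 over fits that each left out 1 library, and the calls lost included Dhcr7, Idi1 and Sc5d: all of these without control replicate 1 and without 3AP replicate 1, Dhcr7 and Sc5d without control replicate 2, and Dhcr7 and Idi1 without 3AP replicate 2 (up to 0.17). Of the same 19 genes 3 rose and none fell in PLX3AP against 3AP, among them Cyp51 (0.36, adjusted p = 0.0092) and Msmo1 (0.41, 0.014), by edgeR. Both of these calls were lost without 3AP replicate 1 or 2, and that of Msmo1 also without PLX3AP replicate 2 (up to 0.065 and 0.094), and the count ran from 0 to 3 over fits that each left out 1 library. DESeq2 called 7 of the 19 higher in this comparison and limma on TPM called 1. In 3AP against control DESeq2 called 8 of the 19 lower and limma on TPM 5. The summed CPM of the 19 genes was 971 to 1000 in PLX3AP, 818 to 834 in 3AP and 1040 to 1100 in control libraries, with no overlap.

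Transcription factors of the oligodendrocyte lineage were not called in any comparison. None of 12 was called by edgeR, DESeq2 or limma, and 3 in 3AP against control, 0 in PLX3AP against 3AP and 2 in PLX3AP against control had an unadjusted p under 0.05. The smallest p in 3AP against control belonged to Nkx6-2 (log2 fold change 0.43, adjusted p = 0.17) and Sox8 (-0.24, 0.24), in edgeR's test. Myrf, which switches on myelin genes and was named after its values were seen, had 44.8, 59.7 and 56.5 CPM in PLX3AP libraries, 49.5, 49.0 and 54.3 CPM in 3AP libraries and 50.9, 47.1 and 47.4 CPM in control libraries, with overlap between all groups. Of 11 genes of junctions and axon contacts none was called in 3AP against control by edgeR, DESeq2 or limma, and none had an unadjusted p under 0.05. In PLX3AP against 3AP 1 of the 11 rose and 0 fell by edgeR. Over fits that each left out 1 library these counts ran from 0 to 2 and from 0 to 1. DESeq2 called 1 higher and 1 lower in PLX3AP against 3AP, and limma on TPM called 0. Genes of neurofilaments and axons were not called in any comparison by edgeR, DESeq2 or limma, and of 11 genes 1, 1 and 0 had an unadjusted p under 0.05 in the same order of comparisons. Their median log2 fold change was 0.04 in 3AP against control, where Cntnap1 (-0.20, adjusted p = 0.17) and Ina (-0.15, 0.32) had the smallest p.

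Of 11 tested genes of newly formed oligodendrocytes, 2 fell in 3AP against control (Gpr17 and Lims2), none was called in PLX3AP against 3AP by edgeR, DESeq2 or limma (4 with an unadjusted p under 0.05), and 2 fell in PLX3AP against control (Gpr17 and Neu4). Gpr17, a receptor of cells about to mature, had 6.43, 5.02 and 7.64 CPM in PLX3AP libraries, 8.69, 7.11 and 5.43 CPM in 3AP libraries and 22.3, 26.0 and 25.0 CPM in control libraries. Its log2 fold change was -1.79 in 3AP against control (adjusted p = 9e-05) and -1.94 in PLX3AP against control (adjusted p = 0.0011), both by edgeR, and its PLX3AP and 3AP libraries overlapped. Whether its pattern differs from that of Opalin was not tested. The sialidase gene Neu4 had 2.53, 2.30 and 2.10 CPM in PLX3AP libraries, 3.73, 3.75 and 3.20 CPM in 3AP libraries and 6.29, 5.50 and 5.07 CPM in control libraries. Its fall in PLX3AP against control (-1.28, adjusted p = 0.02, edgeR) was lost without control replicate 1 or 2 or PLX3AP replicate 2 or 3 (up to 0.13). Lims2 fell by 0.85 in 3AP against control (adjusted p = 0.013, edgeR), lost without control replicate 3 or 3AP replicate 1 or 2 (up to 0.061). Of 12 precursor genes, Cacng4 and Vcan fell in 3AP against control (-0.73, adjusted p = 0.0023, and -0.56, 0.016), and Cacng4 rose in PLX3AP against 3AP (0.55, 0.016), by edgeR. The call of Vcan was lost without control replicate 1 or 2 or 3AP replicate 1 or 2 (up to 0.087), and the rise of Cacng4 without 3AP replicate 1 or 2 or PLX3AP replicate 2 or 3 (up to 0.099).

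**Figure D5:**
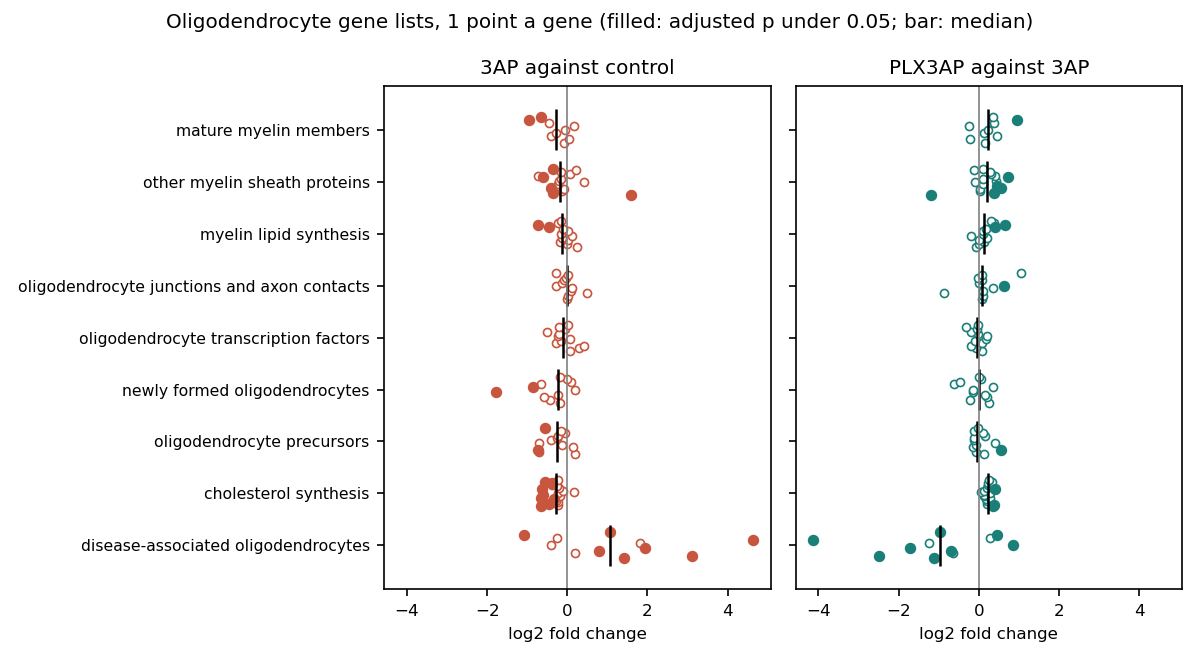
Log2 fold change (horizontal axis) of each tested gene in 9 lists (vertical axis) for 3AP against control and PLX3AP against 3AP; filled points passed an adjusted p of 0.05 in edgeR's test and black bars are list medians. The median of the mature myelin genes is -0.27 in 3AP against control and 0.24 in PLX3AP against 3AP, and that of the genes of disease-associated oligodendrocytes is 1.10 and -0.97.

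Of 11 genes that oligodendrocytes are known to raise in injured or diseased tissue, 6 rose and 1 fell in 3AP against control, and 2 rose and 6 fell in PLX3AP against 3AP. Serpina3n, a protease inhibitor named after its values were seen, had 4.83, 5.60 and 5.01 CPM in PLX3AP libraries, 150, 76.7 and 43.9 CPM in 3AP libraries and 3.54, 3.85 and 3.51 CPM in control libraries. Among those with the smallest p, the antigen presentation genes B2m, H2-K1 and H2-D1 rose in 3AP against control (1.41, 1.94 and 0.80, adjusted p = 9.7e-06, 8.1e-05 and 0.00015) and fell in PLX3AP against 3AP (-1.11, -1.72 and -0.69, adjusted p = 4e-05, 0.00016 and 0.00041), by edgeR. In PLX3AP against 3AP the alarmin gene Il33 was among the 2 that rose (0.85, adjusted p = 0.0028, edgeR), and the count of those that rose ran from 1 to 2 over fits that each left out 1 library. Astrocytes, microglia and vessels make most of these transcripts too, so the list is not specific to oligodendrocytes.

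Markers of other cells moved with the groups as well. Homeostatic microglial genes summed to 121 to 193 CPM in PLX3AP, 433 to 518 CPM in 3AP and 214 to 241 CPM in control libraries, and of 15, 8 rose in 3AP against control and 9 fell in PLX3AP against 3AP. Blood leukocyte genes summed to 1.98 to 3.58 CPM in PLX3AP, 17.3 to 48.1 CPM in 3AP and 1.82 to 5.07 CPM in control libraries, and 5 of 9 tested rose and 7 of 9 fell in those comparisons. Over fits that each left out 1 library, these counts ran from 2 to 7, lowest without control replicate 2, and from 3 to 8, lowest without 3AP replicate 1. Of 10 astrocyte and Bergmann glia genes, 1 rose and 3 fell in 3AP against control, and 1 rose and 1 fell in PLX3AP against 3AP. The astrocyte filament gene Gfap was the one that rose (1.82, adjusted p = 0.013) and then fell (-1.47, adjusted p = 0.037, edgeR). Its rise was lost without any of the 3 control libraries in turn (up to 0.069), and its fall in every fit without 1 library other than those without 3AP replicate 1 or 3 (up to 0.14). The part of these cells in the values of the myelin genes was not tested. Schwann cell genes, which would mark nerve roots, were not called in any comparison by edgeR; 1, 1 and 0 of the 5 tested had an unadjusted p under 0.05, and DESeq2 called 0, 1 and 0. Of the 11 genes listed, 2 were at 0 in each group, among them Pmp2 in all libraries. Genes of hindbrain outside the cerebellum summed to 178 to 198 CPM in PLX3AP, 152 to 193 CPM in 3AP and 155 to 165 CPM in control libraries. None of the 9 tested was called by edgeR or limma in any comparison, DESeq2 called 1, 0 and 1, and 1, 1 and 3 had an unadjusted p under 0.05. The sum includes Slc17a6 (20.9 to 96.7 CPM), also a gene of deep nuclear neurons, so it does not measure tissue outside the cerebellum alone. Dbh had 8.43 CPM in 3AP replicate 2, 7.91 and 10.3 CPM in PLX3AP replicates 2 and 3, and at most 2.53 CPM elsewhere. Th had 37.7, 39.1 and 38.3 CPM in PLX3AP, 33.3, 44.8 and 10.9 CPM in 3AP and 9.92, 10.8 and 9.07 CPM in control libraries. Slc6a5 varied less, from 38.5 to 62.4 CPM. Whether hindbrain carry-over differed between libraries was not tested. Choroid plexus genes were not called by edgeR, DESeq2 or limma, with 1, 0 and 0 of 10 at an unadjusted p under 0.05.

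In PLX3AP against control, 5 of the 9 mature myelin genes had negative and 4 positive log2 fold changes, from -0.29 for Ugt8a to 0.18 for Mbp. Sheath proteins (16 genes), lipid synthesis (13), cholesterol synthesis (19) and precursor genes (12) had no call there by edgeR or limma, with 4, 1, 5 and 4 unadjusted p under 0.05, while DESeq2 called 0, 0, 2 and 1 of them. Of the 11 genes of disease-associated oligodendrocytes 1 fell there by edgeR. Of the 11 junction, 15 microglial, 10 astrocyte and 9 leukocyte genes tested, edgeR and limma called none, DESeq2 called 1, 4, 0 and 0, and 3, 10, 1 and 0 had an unadjusted p under 0.05. The intervals leave room for moderate differences: for Mog it was -0.34 to 0.21, for Mag -0.23 to 0.32 and for Ugt8a -0.57 to -0.01 on the log2 scale.

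By Pearson correlation of log2 CPM over the 9 libraries, the non-member genes most like Opalin were Tmem230 (0.97), Prom1 (0.96), Pllp (0.96), Car2 (0.96), Qdpr (0.96) and Gkn3 (0.95). Those most like the mean of all 9 members were Rtca (0.94), Mrpl36 (0.94), 3300002P13Rik (0.93), Golga7 (0.92), Mrpl46 (0.92) and Coq7 (0.92). Pllp and Car2 are themselves on the list of sheath proteins, while none of the 6 genes nearest to the mean is on any of the 15 lists. The libraries share groups and depth, and these values are given as descriptions.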

How the data were processed

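Total RNA of mouse cerebellum was sequenced in 9 libraries, grouped as their titles give them. Per library the authors deposited expected counts (reads estimated per gene, not normalised) and TPM, which the authors scaled to transcript length and library total. Per the submitters' processing notes, fastp, HISAT2, StringTie, RSEM and the mm10 build were used. Which tool versions, annotation and strandedness were used is not given in the sources used here. Of the deposited expected counts above 0, 28.3 to 30.5% were not whole. The 1884 rows without a gene name, of 55808, held 0.526 to 0.660% of counts and were left out. No column of per-sample values was left unused.

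Expected counts were rounded, and the model was edgeR 4.0.16 under R 4.3.3 (filter filterByExpr, TMM factors 0.986 to 1.02, quasi-likelihood with robust dispersion, 1 term per group, all 9 libraries, biological coefficient of variation 0.126, Benjamini-Hochberg adjustment over 16634 genes, calls at an adjusted p under 0.05, two-sided). CPM, log2 fold changes and intervals (95%) were computed here. The fit was checked on simulated data, where recovery was required only of planted changes larger than any fitted for a member. Alternatives were DESeq2 1.42.0, RLE size factors, no filter, the 6 libraries of a comparison, a replicate block, limma 3.58.1 on log2(TPM + 1) or log2(TPM + 0.1) of genes with a mean TPM of at least 0.5 or with no filter, and leaving out each library.

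The members, the 15 companion lists (197 genes) and the tests were chosen with earlier results of these data known. The genes named are all members, up to 4 called genes with the smallest p per list and comparison (up to 2 where none was called), and the 6 genes most like Opalin and most like the members' mean. Tspan2, Myrf, Serpina3n, Il33, Csf1r, Slc17a6, Dbh, Pmp2, Dhcr7, Idi1 and Sc5d were named outside that rule, after their values were seen. Lists with no call are given by counts, with genes named for some, and some genes that the rule selects are not reported here. Gene positions are from GENCODE M21 and promoter windows from RefSeq. Each fold change rests on 3 libraries a group, and among the 9 members Opalin rests on the fewest counts.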

Additional observations from a re-analysis of the deposited data

How the results depend on the processing

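Opalin kept its call and direction under all 17 alternatives, from -1.13 to -0.85 on the log2 scale in 3AP against control and from 0.85 to 1.13 in PLX3AP against 3AP. Members called in 3AP against control numbered 2, but 4 with DESeq2 (Mog and Mag added), 1 with limma on log2(TPM + 1) without a filter (Ugt8a lost, adjusted p = 0.09) and 1 to 3 when 1 library was left out. In PLX3AP against 3AP the count was 1, but 2 with DESeq2 and 1 to 2 without 1 library. In PLX3AP against control it was 0 under every alternative. Of 27 member log2 fold changes, 19 kept their sign under all alternatives, and the 8 others were all uncalled.

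Over all genes, 820 were called in 3AP against control, but 486, 450 and 419 with limma on log2(TPM + 1), log2(TPM + 0.1) and log2(TPM + 1) without a filter, and 466 to 991 without 1 library. In PLX3AP against 3AP 621 were called, but 353 and 361 with limma on log2(TPM + 0.1) and on log2(TPM + 1) without a filter, and 401 to 715 without 1 library. In PLX3AP against control 20 were called, but 104 with DESeq2, 71 without the filter on low counts, 10 with the replicate block, 5, 7 and 4 with the 3 limma settings in that order, and 7 to 153 without 1 library, highest without PLX3AP replicate 1. The cause of these differences was not tested.

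With the replicate block, 2, 1 and 0 members were called in the 3 comparisons, and 580, 504 and 10 genes in all. Deviations of same-numbered libraries correlated at r = -0.189 to 0.0828 over 9 pairs, against -0.102 to 0.211 over 18 pairs with different numbers. Of the 9 libraries, 0 correlated best with their own number. Whether equal numbers mark a shared litter, day or batch was not tested. With 3 libraries a group, small differences of members with few counts or wide spread, such as Ermn, were not detectable.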
